A study of Mus musculus with 28 samples.

Results

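Basement membrane components were followed as 10 genes, Col4a1, Col4a2, Col4a5, Col4a6, Lama2, Lama4, Lamb1, Lamc1, Nid1 and Hspg2, chosen by name and matched by symbol in the raw count table of 54429 genes. The RNA came from O9-1, an established mouse line of cranial neural crest cells, the embryonic population that builds much of the head skeleton. There were 28 libraries in 8 groups: 4 culture states, each at 21% O2 (normoxic, 4 libraries a group) and at 0.5% O2 (hypoxic, 3 libraries a group). Proliferating cells were kept in DMEM conditioned by STO feeder cells, with 15% fetal calf serum (FCS), non-essential amino acids, beta-mercaptoethanol, 25 ng/ml bFGF and 5 ng/ml LIF. Osteoblast cultures spent 10 days in alpha-MEM with 10% FCS, 10 mM beta-glycerophosphate, 0.1 µM dexamethasone and 100 ng/ml BMP-2. Chondrocyte cultures spent 3 days in that medium and then 7 days as micromasses on Matrigel-coated plastic, in alpha-MEM with 5% FCS, insulin-transferrin-selenium, 0.1 µM dexamethasone, 10 ng/ml TGF-beta3 and 50 ng/ml BMP-2. Smooth muscle cultures spent 3 days in DMEM with 10% FCS. All media contained penicillin and streptomycin. All libraries share 1 cell line, and the labels do not say whether replicates were separate cultures, so p-values measure the spread between these libraries, which may be technical.

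A basement membrane is a thin sheet of matrix that underlies epithelia and wraps muscle, fat, nerve and blood vessels. Its 2 networks are made of collagen IV, a triple helix of alpha chains, and of laminins, each a cross-shaped trimer of an alpha, a beta and a gamma chain, while nidogen and the proteoglycan perlecan join the networks to each other. Neural crest cells leave the neural tube through such a sheet and migrate along laminin and collagen IV, and cartilage cells keep perlecan and collagen IV in the matrix close to the cell. Of the 10 genes, Col4a1, Col4a2, Col4a5 and Col4a6 encode collagen IV chains, Lama2 and Lama4 laminin alpha chains, Lamb1 a beta chain, Lamc1 a gamma chain, Nid1 nidogen 1 and Hspg2 the perlecan core protein.

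Col4a1 and Col4a2 lie head to head on chromosome 8 of GRCm38 (mm10), with annotated start sites 21 bases apart on opposite strands, so a single short stretch of DNA serves as the promoter of both. Their promoter windows, from 250 bases before to 50 bases after the start site, overlap and are shown because the levels of these genes are set side by side below. Nid1 is shown beside them as the gene that was higher at 0.5% O2 in all 4 culture states under TMM scaling. Each is written 5′ to 3′ on the gene's own strand, from RefSeq (GRCm38.p6), at chr8:11312777-11313076 for Col4a1, chr8:11312555-11312854 for Col4a2 and chr13:13437352-13437651 for Nid1. Capitals mark the CCAAT box (CCAAT) and the GC box (GGGCGG), searched on both strands.
Col4a1: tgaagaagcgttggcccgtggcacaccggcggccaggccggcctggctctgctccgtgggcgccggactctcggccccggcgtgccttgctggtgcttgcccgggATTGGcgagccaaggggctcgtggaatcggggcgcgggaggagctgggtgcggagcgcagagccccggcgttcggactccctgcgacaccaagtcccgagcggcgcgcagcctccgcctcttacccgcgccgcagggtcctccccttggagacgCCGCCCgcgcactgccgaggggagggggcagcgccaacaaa
Col4a2: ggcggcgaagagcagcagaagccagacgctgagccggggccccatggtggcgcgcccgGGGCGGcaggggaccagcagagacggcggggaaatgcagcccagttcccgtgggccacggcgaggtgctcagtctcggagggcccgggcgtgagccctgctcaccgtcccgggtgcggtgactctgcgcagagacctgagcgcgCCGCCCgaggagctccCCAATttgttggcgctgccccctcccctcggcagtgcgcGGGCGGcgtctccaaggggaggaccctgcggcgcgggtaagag
Nid1: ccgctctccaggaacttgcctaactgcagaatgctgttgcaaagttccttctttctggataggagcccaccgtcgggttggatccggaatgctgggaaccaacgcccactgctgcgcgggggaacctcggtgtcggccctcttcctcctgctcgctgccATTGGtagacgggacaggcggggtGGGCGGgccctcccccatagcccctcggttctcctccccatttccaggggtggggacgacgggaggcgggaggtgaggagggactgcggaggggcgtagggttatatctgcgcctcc
The Col4a1 window held 1 CCAAT box and 1 GC box, and the Col4a2 window 1 CCAAT box and 3 GC boxes. The GC box of Col4a1 and 1 of the 3 of Col4a2 are the same site, in the overlap of the windows. RefSeq windows were matched for 8 of the 10 genes. Among these 8, the letters ACGTG on either strand, 1 form of the hypoxia response element core, were found in 0 windows, against 19.6% of all 32851 windows in the table. The other form of that core, GCGTG, was not searched for, and the printed Col4a1 and Col4a2 windows hold it. The search therefore does not show that these windows lack the core. All 8 held at least 1 GC box, which 35.7% of all windows held, and 5 of the 8 held a CCAAT box, which 37.4% held. The G and C content of the 8 ran from 48.3% (Col4a6) to 74.0% (Col4a1), against a median of 52.7% over all windows. The RefSeq window of Lama2 does not reach the start site of the gene annotation used here. These are matches of letters and not measured binding.

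Library totals, in units of 1000000 counts, ran from 19.87 to 64.69, with a median of 26.8. The 3 hypoxic smooth muscle libraries stood apart. Their mitochondrial ribosomal RNAs, mt-Rnr1 and mt-Rnr2, took 11.6% to 13.3% of all counts, against 0.0252% to 0.0889% in the other 25 libraries, and the scaling factor from edgeR's TMM method was 0.518 to 0.545, against 0.896 to 1.26. Their 6 smooth muscle markers summed to 92.6 to 116 CPM (counts per 1000000, scaled by TMM here and below), against 3697 to 4137 in normoxic smooth muscle and 92.3 to 99.2 in normoxic proliferating cells, so the labelled cell type was not borne out by its markers. Their 6 neural crest markers summed to 2857 to 3576 CPM, against 2771 to 3019 in hypoxic proliferating cells and 823.1 to 1024 in normoxic smooth muscle, and Cd68 averaged 34.0 CPM, while the other 5 leukocyte markers averaged under 1 CPM. The part of these values in that group's results was not tested. With library size alone the median log2 change of all genes in this group was -1.35 against hypoxic proliferating cells, and -0.07 with TMM. Normoxic osteoblast replicate 4 also stood apart, with chondrocyte markers summing to 1502 CPM against 185.8 to 202.4 in the other 3, and the osteoblast results that change most are also given without it. Neural crest markers summed to 2289 to 2499 CPM in normoxic proliferating cells, nearly all from Crabp1 (mean 2226), and to 151.5 to 159.2 CPM in normoxic chondrocyte cultures, while Sox10 and Foxd3 had 1 and 0 counts over all libraries. Osteoblast markers summed to 4993 to 5294 CPM in hypoxic osteoblast cultures (Spp1 mean 4730), 1054 to 1251 in normoxic ones and 2770 to 4691 in normoxic chondrocyte cultures, while Ibsp, a bone matrix gene of that list, averaged 70.1, 1.15 and 1169 CPM in these groups. Col2a1, the cartilage collagen gene, averaged 3490 CPM in normoxic and 275.5 CPM in hypoxic chondrocyte cultures. The smooth muscle markers also summed to 3694 to 5248 CPM in normoxic osteoblast and 2094 to 2535 CPM in normoxic chondrocyte cultures. Adipocyte markers summed to 152.6 to 197.4 CPM in hypoxic and 13.9 to 17.9 CPM in normoxic osteoblast cultures, and to 56.5 to 73.6 CPM in normoxic and 3.67 to 7.34 CPM in hypoxic smooth muscle. The part of these markers in the results was not tested. Endothelial markers summed to at most 7.70, epithelial markers to at most 11.6 and glial markers to at most 13.3 CPM in any library. Bulk RNA cannot tell fewer cells of a type from less RNA per cell.

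Divided by exon length, the most abundant of the 10 genes in normoxic proliferating cells were Col4a1 at 80.8 ± 3.53 CPM per kb (SD, n = 4) and Col4a2 at 63.9 ± 1.47. Nid1 followed at 50.7 ± 2.88, Lamb1 at 36.0 ± 1.52, Lamc1 at 35.1 ± 0.52 and Hspg2 at 24.9 ± 4.51 CPM per kb. Lama4 and Lama2 were close to 0 there, at 0.0127 ± 0.0085 and 0.0101 ± 0.0070 CPM per kb. Both laminin alpha genes were thus almost silent in the starting cells, while the beta and gamma chain genes were not. In hypoxic chondrocyte cultures the order was different: Hspg2 (118 ± 6.01 CPM per kb, n = 3) stood level with Col4a1 (115 ± 15.3) and Col4a2 (114 ± 13.2). Together the 10 genes took 0.303% ± 0.0054 of all counts in normoxic proliferating cells and 0.657% ± 0.012 in hypoxic proliferating cells, and the ranges did not overlap.

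**Figure D1:**
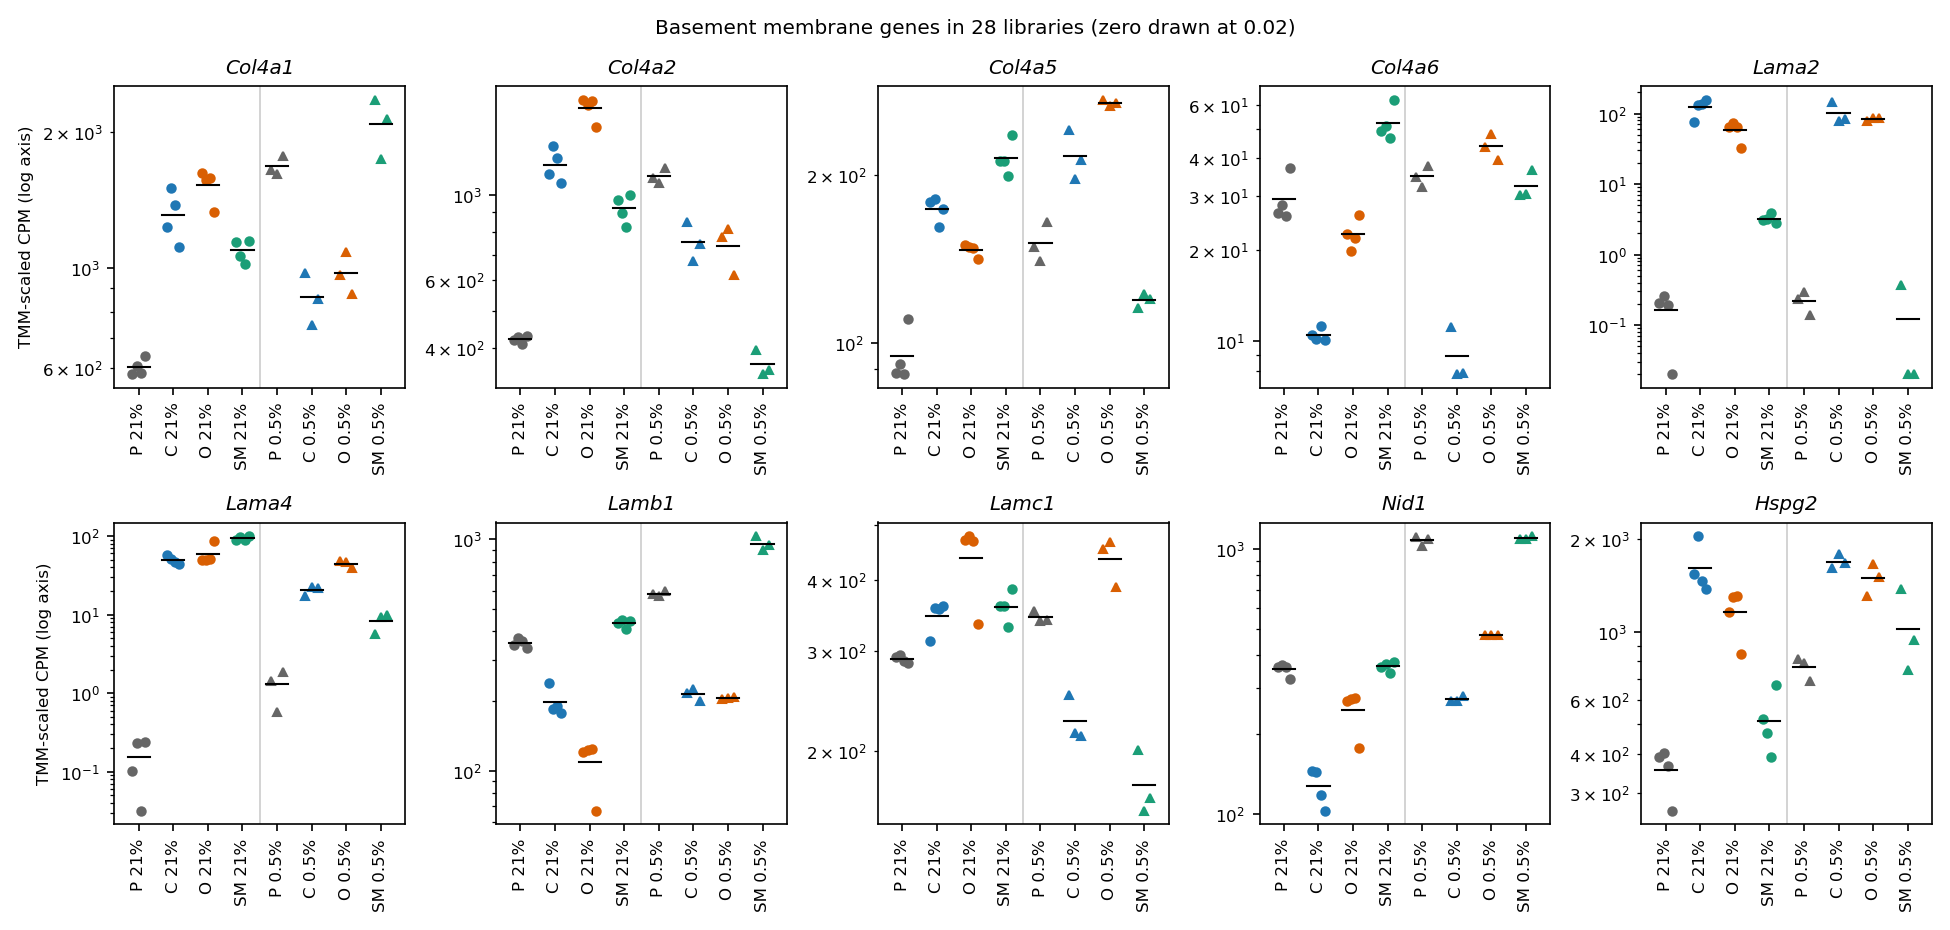
TMM-scaled CPM (log axis) of the 10 genes in each library, in 8 groups on the x axis: proliferating (P), chondrocyte (C), osteoblast (O) and smooth muscle (SM) at 21% and 0.5% O2. Points are libraries and bars are group means. Lama2 and Lama4 span several orders of magnitude, while Lamc1 spans 2.52-fold between its highest and lowest group means under this scaling.

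At 21% O2, most of the 10 genes were higher after differentiation. A gene was called at a Benjamini-Hochberg adjusted p under 0.05 in edgeR's quasi-likelihood test. In chondrocyte against proliferating cultures 7 of the 10 rose and 3 fell, where 74.9% of all genes tested were called, 37.7% higher and 37.2% lower. The rise of Lamc1 is lost with library size alone (-0.06, adjusted p = 0.285). In osteoblast cultures 7 rose and 3 fell (78.7% of all genes called, 40.9% higher and 37.8% lower), and the fall of Col4a6 lost its call without normoxic osteoblast replicate 2 (-0.35, adjusted p = 0.0571). Smooth muscle cultures showed 9 rises and 0 falls (79.7% called, 40.8% higher and 38.9% lower), and Nid1 was not called. The 10 genes had median log2 fold changes of 1.03, 0.97 and 0.82, against -0.00, 0.07 and 0.03 over all genes tested.

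At 0.5% O2 the set was split. In chondrocyte cultures 4 rose and 6 fell (69.5% of all genes called, 34.9% higher and 34.6% lower), and in osteoblast cultures 6 rose and 4 fell (71.3% called, 36.2% higher and 35.1% lower). With library size alone the osteoblast calls of Lamc1 (0.12, adjusted p = 0.181) and Col4a6 (0.10, adjusted p = 0.389) were lost, and that of Col4a6 also without hypoxic osteoblast replicate 2 (adjusted p = 0.0506). In smooth muscle cultures 5 rose and 2 fell among 9 tested (70.0% called, 33.8% higher and 36.2% lower), but 1, Lama4, rose and 8 fell when only library size was used for scaling, where Col4a5 (-1.44, adjusted p = 2.16e-08) and Col4a6 (-1.21, adjusted p = 2.09e-06) were also called. Of the 5 rises, that of Nid1 (0.205) was also lost with no filter, in 1 fit of all 28 libraries and without hypoxic proliferating replicate 1 or 2 (adjusted p = 0.263, 0.538, 0.0543 and 0.118). That of Hspg2 (0.59) was also lost with no filter, with limma-voom, in 1 fit of all 28 libraries and without hypoxic proliferating replicate 3 (adjusted p = 0.209, 0.0917, 0.0561 and 0.0742). The medians were -0.59, 0.34 and 0.21, against -0.02, 0.00 and -0.07 over all genes. The 3 comparisons at each oxygen level share their proliferating libraries.

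The 10 genes were also compared between oxygen levels within each culture state, and the directions differed between states. In proliferating cells 8 of 9 tested genes were higher at 0.5% O2 and 0 were lower, where 65.4% of all genes were called, 33.1% higher and 32.3% lower, and the median was 1.10 against 0.02 over all genes. The call of Lamc1 among them was lost in 1 fit of all 28 libraries (0.18, adjusted p = 0.137). Col4a6, the tested gene not called, gained a call under some alternatives, given below. In chondrocyte cultures 2 were higher and 4 lower at 0.5% O2 (22.2% called, 10.4% higher and 11.8% lower), and in osteoblast cultures 4 were higher and 2 lower (54.3% called, 27.0% higher and 27.3% lower), or 6 and 2 without normoxic osteoblast replicate 4. In smooth muscle cultures 4 were higher and 6 lower (75.6% called, 35.4% higher and 40.2% lower). With library size alone the values of Col4a1, Lamb1 and Hspg2 change sign, Lamb1 and Hspg2 are no longer called, and the counts become 1 higher and 7 lower.

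The difference between the 2 oxygen levels in the change on differentiation was tested as an interaction. It was called for 9 genes in chondrocyte cultures, all more negative at 0.5% O2 (43.5% of all genes called, 21.6% more positive and 21.9% more negative). In osteoblast cultures it was called for 6 genes, 5 more negative and 1 more positive (54.2% called, 28.9% more positive and 25.3% more negative), or for 8, 6 more negative and 2 more positive, without normoxic osteoblast replicate 4. For smooth muscle cultures it was called for 8 genes, 7 more negative and 1, Lamb1, more positive, the latter reversing to -0.71 with library size alone (70.4% called, 34.9% more positive and 35.5% more negative). The uncalled smooth muscle interactions of Nid1 (0.18) and Hspg2 (0.07) also reverse under that scaling, to -1.16 and -1.26, and are then called (adjusted p = 2.73e-11 and 0.00427), so that all 10 are called more negative. That of Nid1 was instead called more positive with DESeq2 (0.21, adjusted p = 0.0105) and limma-voom (0.18, adjusted p = 0.0312). It was also called so without normoxic proliferating or normoxic smooth muscle replicate 4 (adjusted p = 0.0125 and 0.0465). The osteoblast interaction of Hspg2, -0.68 ± 0.22 (adjusted p = 0.0185), lost its call with no filter, in 1 fit of all 28 libraries and without hypoxic osteoblast replicate 1 (adjusted p = 0.0533, 0.0516 and 0.0588). The chondrocyte interaction of Col4a6, -0.48 ± 0.19 (adjusted p = 0.046), was lost on leaving out most of the libraries in turn, with adjusted p up to 0.137, and that of Col4a5 without hypoxic proliferating replicate 3 or hypoxic chondrocyte replicate 2 (adjusted p = 0.0672 and 0.0637).

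**Figure D2:**
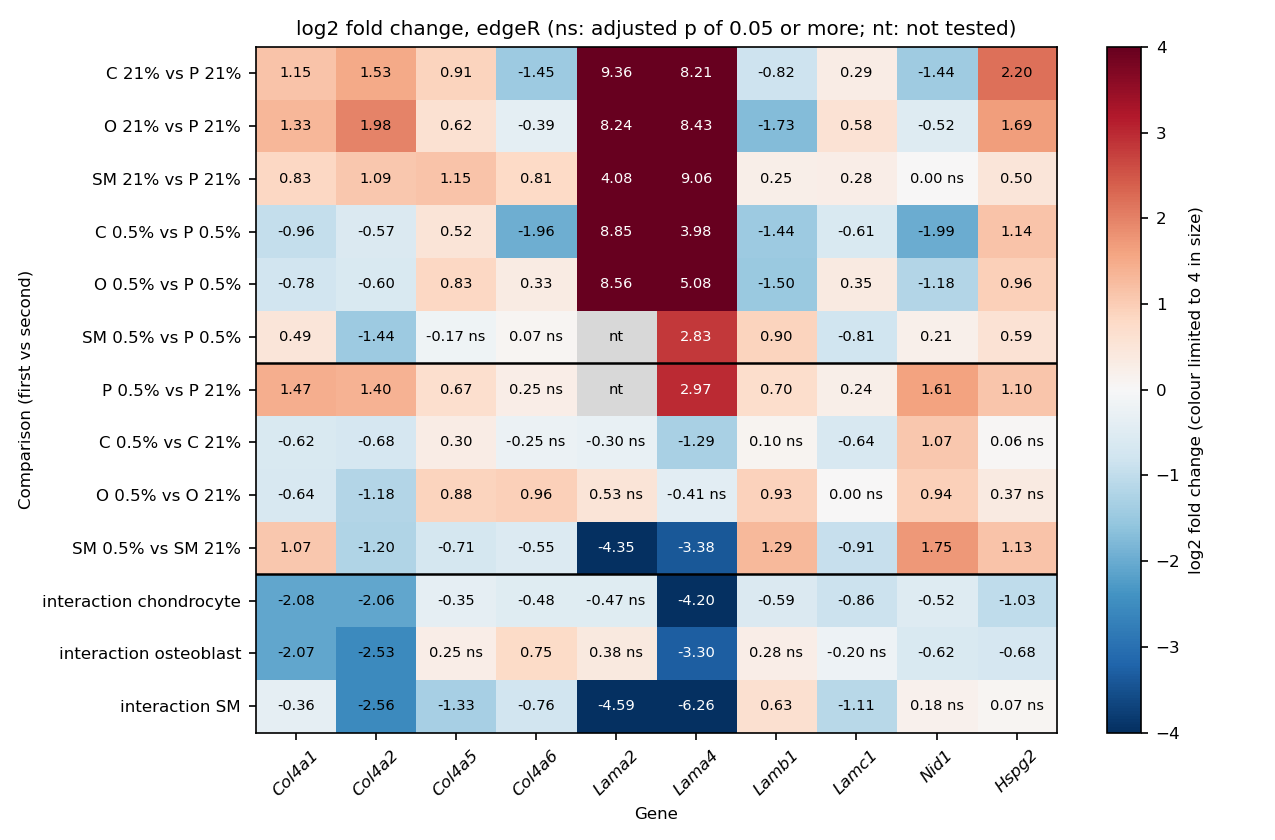
Heat map of log2 fold changes of the 10 genes (x axis) in 10 comparisons and 3 interactions (y axis), first group against second, with P, C, O and SM for the culture states. Values not called carry ns and genes not tested carry nt. Lama2 and Lama4 have the largest rises, and Col4a1 and Col4a2 rise in all 3 differentiations at 21% O2 and fall in chondrocyte and osteoblast cultures at 0.5% O2. In the hypoxic smooth muscle rows, the rises of Col4a1, Lamb1 and Hspg2 reverse when only library size is used for scaling, as does that of Nid1 against hypoxic proliferating cells. Against normoxic smooth muscle the values of Lamb1 and Hspg2 are then not called.

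Col4a1 and Col4a2, whose products join in the main collagen IV trimer of most tissues, rose on differentiation at 21% O2 and fell in chondrocyte and osteoblast cultures at 0.5% O2. In normoxic proliferating cells Col4a1 measured 581, 606, 586 and 639 CPM in the 4 libraries. In normoxic osteoblast cultures it measured 1622, 1565, 1581 and 1330 CPM. Every osteoblast library was above every proliferating library, a log2 fold change of 1.33 ± 0.074 (SE, adjusted p = 1.5e-07). The rise was 1.15 ± 0.087 in chondrocyte cultures (adjusted p = 1.5e-07) and 0.83 ± 0.057 in smooth muscle cultures (adjusted p = 1.85e-09). Hypoxic proliferating cells already held 1643, 1615 and 1767 CPM, above all 4 normoxic libraries of that state, with a log2 difference of 1.47 ± 0.050 (adjusted p = 2.64e-11). From that level Col4a1 fell to 976, 748 and 855 CPM in hypoxic chondrocyte cultures (log2 fold change -0.96 ± 0.084, adjusted p = 4.12e-07) and to 963, 1085 and 873 CPM in hypoxic osteoblast cultures (-0.78 ± 0.080, adjusted p = 3.87e-07). The change on differentiation thus took opposite directions at the 2 oxygen levels, and the interaction was -2.08 ± 0.14 in chondrocyte cultures (adjusted p = 3.54e-09) and -2.07 ± 0.12 in osteoblast cultures (adjusted p = 2.04e-09).

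Col4a2 followed the same course outside hypoxic smooth muscle. It measured 422, 429, 410 and 432 CPM in normoxic proliferating cells and 1763, 1712, 1754 and 1498 CPM in normoxic osteoblast cultures, its highest group (log2 fold change 1.98 ± 0.067, adjusted p = 7.34e-09). Hypoxic proliferating cells held 1108, 1074 and 1171 CPM, 1.40 ± 0.046 higher on the log2 scale than normoxic ones (adjusted p = 1.78e-11). Both chains of the trimer were therefore higher in every hypoxic than in every normoxic proliferating library. The interaction was -2.06 ± 0.12 in chondrocyte and -2.53 ± 0.13 in osteoblast cultures (adjusted p = 6.62e-10 and 4.95e-10). Directly between oxygen levels, Col4a2 was lower at 0.5% O2 in osteoblast cultures with a log2 difference of -1.18 ± 0.12 (adjusted p = 4.91e-05) and in chondrocyte cultures with a difference of -0.68 ± 0.099 (adjusted p = 0.000603). For Col4a1 these differences were -0.64 ± 0.11 (adjusted p = 0.00113) and -0.62 ± 0.12 (adjusted p = 0.00312).

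In hypoxic smooth muscle cultures the pair separated. Col4a1 measured 2353, 1741 and 2133 CPM and Col4a2 397, 343 and 353 CPM. Against normoxic smooth muscle, Col4a1 was 1.07 ± 0.092 higher on the log2 scale (adjusted p = 5.43e-08), a direction that reverses to -0.30 when only library size is used for scaling, and Col4a2 was lower under either scaling, at -1.20 ± 0.085 (adjusted p = 5.91e-09). The ratio of Col4a1 to Col4a2 counts per kb, taken within a library, does not depend on scaling. It was 5.04 ± 0.47 (range 4.50 to 5.37) in hypoxic smooth muscle and between 0.787 and 1.34 in every one of the other 25 libraries. The lowest ratio was in normoxic osteoblast cultures, at 0.803 ± 0.013, and the highest outside hypoxic smooth muscle was in hypoxic proliferating cells, at 1.33 ± 0.012. The same 3 libraries carried the raised mitochondrial ribosomal RNA given above, and its part in the separation was not tested.

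**Figure D3:**
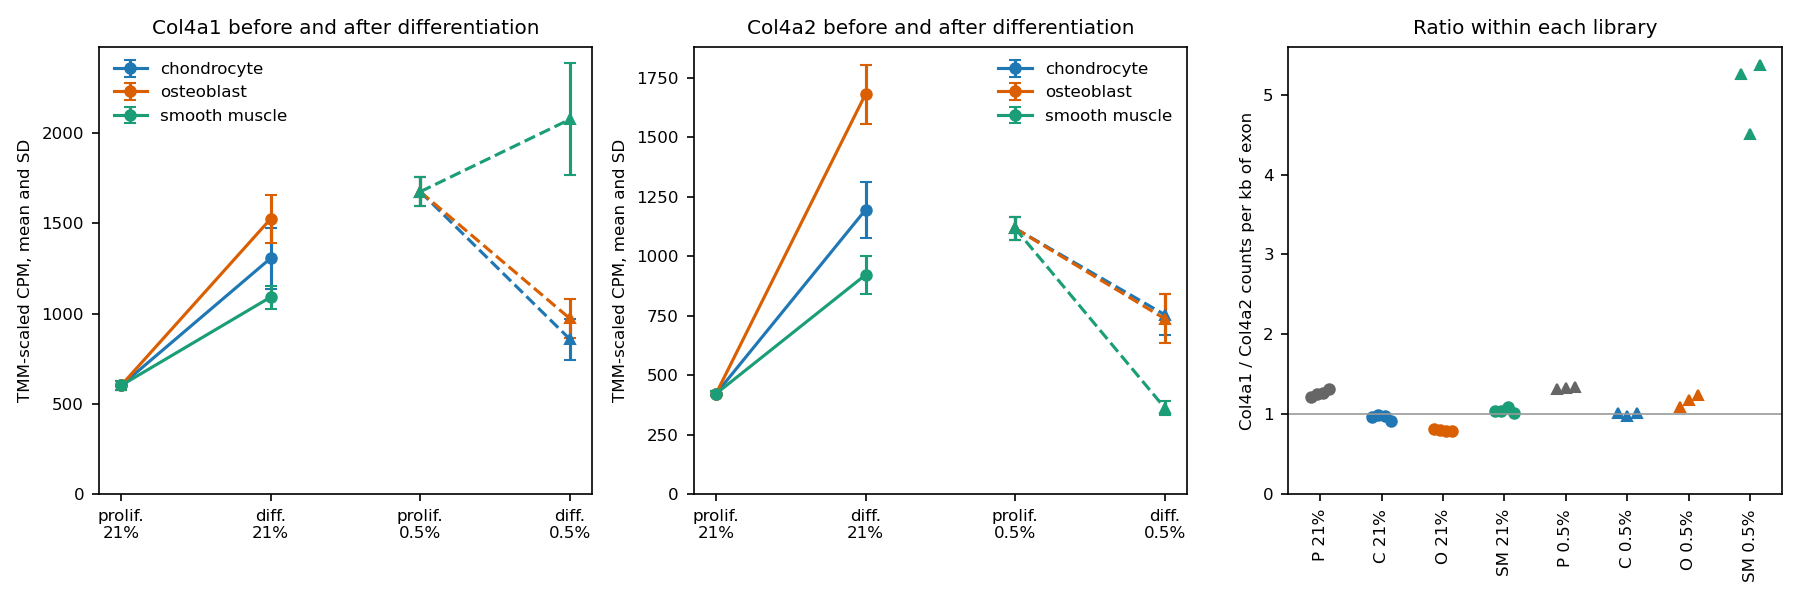
Left and middle, mean TMM-scaled CPM of Col4a1 and Col4a2 with SD bars in proliferating (prolif.) and differentiated (diff.) groups, joined by solid lines at 21% O2 and dashed lines at 0.5% O2. Right, the within-library ratio of Col4a1 to Col4a2 counts per kb of exon in 28 libraries. The rise of Col4a1 in hypoxic smooth muscle reverses when only library size is used for scaling, and the ratio there is 4.50 to 5.37.

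Col4a5 and Col4a6, which encode chains of the other collagen IV trimers of smooth muscle and some epithelia, also lie head to head, on chromosome X, with annotated starts 1309 bases apart. They moved in opposite directions in chondrocyte cultures and in the same direction in normoxic smooth muscle. Col4a5 rose in all 3 normoxic differentiations, with log2 fold changes of 0.91 ± 0.076, 0.62 ± 0.079 and 1.15 ± 0.075 in chondrocyte, osteoblast and smooth muscle cultures (adjusted p of 5e-05 or less). Col4a6 fell in normoxic chondrocyte cultures, from 26.5, 28.1, 25.7 and 37.0 CPM to 10.5, 10.2, 11.2 and 10.1 CPM (-1.45 ± 0.12, adjusted p = 2.54e-07). It rose in normoxic smooth muscle to 49.2, 51.0, 46.5 and 62.3 CPM (0.81 ± 0.12, adjusted p = 3.85e-05), and neither of those groups overlapped the proliferating libraries. The ratio of Col4a5 to Col4a6 counts per kb was 3.87 ± 0.22 in normoxic proliferating cells, 19.7 ± 1.77 in normoxic chondrocyte and 29.2 ± 3.37 in hypoxic chondrocyte cultures. Hypoxic osteoblast cultures held more of both than normoxic ones: Col4a5 at 272, 265 and 269 CPM was 0.88 ± 0.070 higher (adjusted p = 1.09e-05), and Col4a6 at 43.4, 48.1 and 39.5 CPM was 0.96 ± 0.12 higher (adjusted p = 0.000123). In proliferating cells Col4a5 was higher at 0.5% O2 (0.67 ± 0.082, adjusted p = 1.4e-05), and Col4a6 was not called (0.25 ± 0.12, adjusted p = 0.080). That Col4a6 difference was called with limma-voom (0.28, adjusted p = 0.0357) and with a replicate block (0.37, adjusted p = 7.87e-06). It was also called without normoxic proliferating replicate 4 (0.36, adjusted p = 3.33e-05). The Col4a5 difference between oxygen levels in chondrocyte cultures, 0.30 ± 0.075 (adjusted p = 0.014), missed the threshold without normoxic replicate 3 or hypoxic replicate 1 (adjusted p = 0.052 and 0.055).

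Lama2 encodes the alpha chain of the laminin of muscle and peripheral nerve. It was nearly absent from proliferating cells, at 0.207, 0.261, 0.192 and 0 CPM at 21% O2 and 0.230, 0.291 and 0.138 CPM at 0.5% O2. Normoxic chondrocyte cultures held 75.2, 132, 136 and 157 CPM and normoxic osteoblast cultures 63.7, 72.5, 65.0 and 32.7 CPM. The ranges were far apart, with log2 fold changes of 9.36 ± 0.40 (adjusted p = 2.78e-08) and 8.24 ± 0.42 (adjusted p = 9.77e-08). Hypoxic chondrocyte and osteoblast cultures reached 79.7 to 146 and 79.6 to 86.3 CPM, and no difference between oxygen levels was called in either state (log2 -0.30 ± 0.33, adjusted p = 0.59, and 0.53 ± 0.23, adjusted p = 0.084). Without normoxic osteoblast replicate 4 the latter was 0.33 and called (adjusted p = 0.0012). In smooth muscle cultures Lama2 reached 2.77 to 3.89 CPM at 21% O2 (4.08 ± 0.38 above proliferating cells, adjusted p = 7.7e-08) and only 5 counts in all at 0.5% O2, all in replicate 1. That oxygen difference was called (-4.35 ± 0.64, adjusted p = 2.02e-05), and without replicate 1 the fitted value was -9.38, which rests on 2 libraries at 0 counts and is no measure of size.

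Lama4 encodes the laminin alpha chain of blood vessel and other mesenchymal basement membranes, and its order of groups differed from that of Lama2. Normoxic proliferating cells held 0.104, 0.235, 0.032 and 0.240 CPM. Normoxic smooth muscle cultures held 89.3, 97.6, 89.9 and 99.5 CPM, above every library of every other group. The log2 rise there was 9.06 ± 0.16 (adjusted p = 4.14e-16), and it was 8.21 ± 0.22 in chondrocyte and 8.43 ± 0.36 in osteoblast cultures (adjusted p = 3.16e-11 and 3.36e-08). Lama4 was already higher in hypoxic proliferating cells, at 1.45, 0.582 and 1.86 CPM (2.97 ± 0.52, adjusted p = 0.000186). It rose less from there: by 3.98 ± 0.29 in chondrocyte cultures (adjusted p = 1.01e-06), 5.08 ± 0.23 in osteoblast cultures (adjusted p = 3.01e-10) and 2.83 ± 0.40 in smooth muscle cultures (adjusted p = 6.71e-05). The interactions were -4.20 ± 0.46, -3.30 ± 0.58 and -6.26 ± 0.47 (adjusted p = 4.49e-06, 0.000321 and 6.99e-10). Their sizes are uncertain, since they rest on 30 Lama4 counts over the 4 normoxic and 114 over the 3 hypoxic proliferating libraries. In hypoxic smooth muscle it stayed at 5.72, 9.23 and 9.93 CPM. Between oxygen levels Lama4 was lower at 0.5% O2 in chondrocyte (-1.29 ± 0.12, adjusted p = 2.71e-05) and smooth muscle cultures (-3.38 ± 0.16, adjusted p = 3.55e-11), and was not called in osteoblast cultures (-0.41 ± 0.21, adjusted p = 0.13, and -0.17 without normoxic replicate 4).

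The other laminin alpha genes set these levels in scale. Lama5, the broadly expressed alpha chain gene, was at 12.3 to 24.6 CPM per kb in the group means, above Lama2 and Lama4 in every group, and was not called in the chondrocyte comparison at either oxygen level. Lama1, which encodes the alpha chain of the laminin in Matrigel, averaged at most 0.0540 CPM in any group. Lama3, an epithelial laminin chain gene, reached 9.99 ± 3.03 CPM in normoxic and 23.8 ± 1.91 CPM in hypoxic osteoblast cultures.

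**Figure D4:**
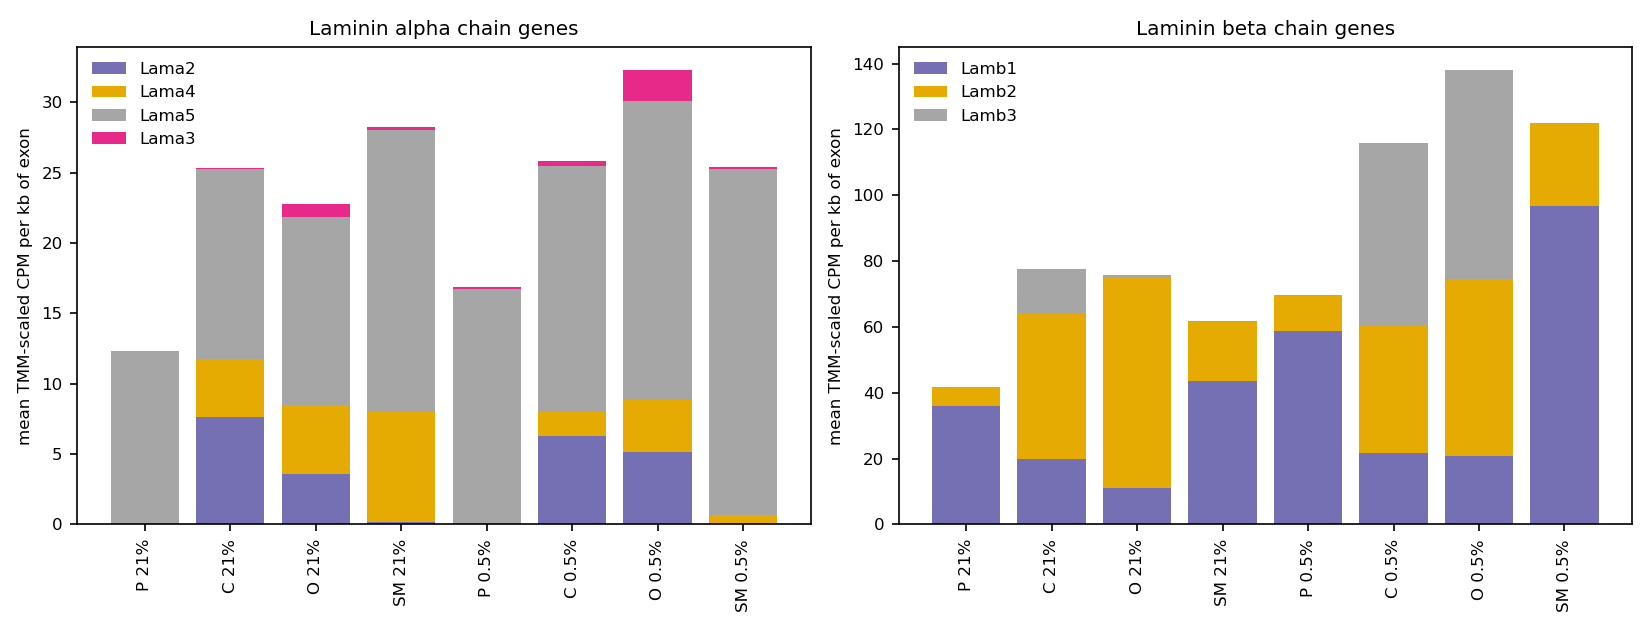
Stacked bars of the mean TMM-scaled CPM per kb of exon of laminin alpha chain genes (left) and beta chain genes (right) in the 8 groups. Lama2 and Lama4 are visible beside Lama5 in the chondrocyte and osteoblast groups and Lama4 in normoxic smooth muscle, Lamb2 exceeds Lamb1 in chondrocyte and osteoblast cultures, and Lamb3 is largest in hypoxic chondrocyte and osteoblast cultures.

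Lamb1 encodes the beta chain that pairs with most laminins of the embryo. It fell in chondrocyte and osteoblast cultures at both oxygen levels and rose in normoxic smooth muscle. Normoxic proliferating cells held 350.2, 374, 364 and 339.9 CPM, chondrocyte cultures 239, 185, 191 and 178 CPM, and osteoblast cultures 119.9, 123, 124 and 67.1 CPM. No osteoblast library overlapped a chondrocyte or proliferating one. The log2 fold changes were -0.82 ± 0.085 in chondrocyte cultures (adjusted p = 2.42e-06) and -1.73 ± 0.18 in osteoblast cultures (adjusted p = 1.09e-05, and -1.60 without replicate 4). At 0.5% O2 they were -1.44 ± 0.064 and -1.50 ± 0.062 (adjusted p = 3.08e-10 and 8.22e-12). In smooth muscle cultures Lamb1 rose by 0.25 ± 0.052 at 21% O2 (adjusted p = 0.000434), a call lost in 1 fit of all 28 libraries (0.19, adjusted p = 0.146). In hypoxic smooth muscle it measured 1031, 900.2 and 942 CPM, the highest of all groups under TMM scaling. Its log2 difference from normoxic smooth muscle was 1.29 ± 0.072 (adjusted p = 4.1e-10). With library size alone that difference is -0.08 and not called (adjusted p = 0.327).

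Lamb2, the beta chain gene of mature muscle and kidney basement membranes, rose where Lamb1 fell, in chondrocyte and osteoblast cultures, and rose beside it in normoxic smooth muscle (1.62 ± 0.065, adjusted p = 2.56e-12). Of the summed per-kb level of the 2 genes, Lamb1 made up 86.2% ± 0.87 in normoxic proliferating cells, 31.3% ± 4.65 in chondrocyte cultures, 14.4% ± 2.39 in osteoblast cultures and 70.8% ± 1.36 in smooth muscle cultures. At 0.5% O2 the shares were 84.6% ± 0.79, 35.8% ± 1.14, 28.01% ± 2.63 and 79.5% ± 1.65. These shares come from within each library and do not depend on scaling. Lamb2 itself rose by 2.97 ± 0.070 in normoxic chondrocyte and 3.47 ± 0.077 in normoxic osteoblast cultures (adjusted p = 8.6e-12 and 7.8e-10). Lamb3, which encodes the beta chain of the epithelial anchoring laminin, was at 3.46, 2.96, 2.61 and 8.51 CPM in normoxic osteoblast cultures and at 397, 446 and 415 CPM in hypoxic ones, a log2 difference of 6.57 ± 0.43 (adjusted p = 1.49e-05). Chondrocyte cultures held between 83.0 and 96.8 CPM of Lamb3 at 21% O2 and between 303 and 401 CPM at 0.5% O2 (2.01 ± 0.10, adjusted p = 7.19e-07).

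Lamc1, the gamma chain shared by most laminins, ranged from a mean of 174 CPM in hypoxic smooth muscle to 439 CPM in normoxic osteoblast cultures, or from 92.8 to 473.7 CPM with library size alone. It rose by 0.58 ± 0.11 in normoxic osteoblast cultures (adjusted p = 0.000586) and by 0.28 ± 0.054 in normoxic smooth muscle (adjusted p = 0.000213). Its rise of 0.29 ± 0.058 in normoxic chondrocyte cultures (adjusted p = 0.000696) is lost with library size alone (-0.06, adjusted p = 0.285). At 0.5% O2 it fell in chondrocyte cultures, from 353, 339 and 340.1 CPM to 250.5, 215 and 212 CPM (-0.61 ± 0.069, adjusted p = 3.64e-06), with no overlap. Between oxygen levels no difference was called in osteoblast cultures (0.00 ± 0.14, adjusted p = 0.99), at 471, 478, 469.8 and 335 CPM against 454, 467 and 389 CPM. Lamb1 thus fell in chondrocyte and osteoblast cultures while Lamc1 did not follow it at 21% O2: the ratio of Lamb1 to Lamc1 counts per kb was 1.03 ± 0.036 in normoxic proliferating cells, 0.483 ± 0.11 in chondrocyte, 0.204 ± 0.024 in osteoblast and 1.01 ± 0.036 in smooth muscle cultures. In hypoxic smooth muscle that ratio was 4.62 ± 0.28.

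Nid1 was higher at 0.5% O2 in each of the 4 culture states. Proliferating cells held 359.8, 367, 359.9 and 323 CPM at 21% O2 and 1109, 1030 and 1092 CPM at 0.5% O2. The groups were far apart, with a log2 difference of 1.61 ± 0.052 (adjusted p = 1.6e-11). Chondrocyte cultures held 145, 144, 118 and 103 CPM against 267, 268 and 279 CPM (1.07 ± 0.11, adjusted p = 0.000105). Osteoblast cultures held 268, 271, 275 and 179 CPM against 475, 474 and 473 CPM (0.94 ± 0.14, adjusted p = 0.000523, and 0.81 without normoxic replicate 4). Smooth muscle cultures held 359.7, 368, 341 and 375 CPM against 1091, 1090 and 1117 CPM (1.75 ± 0.068, adjusted p = 6e-12), and with library size alone this difference was 0.38 (adjusted p = 0.000106). In none of the 4 states did a hypoxic library overlap a normoxic one. On differentiation Nid1 fell in chondrocyte cultures, with log2 fold changes of -1.44 ± 0.10 at 21% and -1.99 ± 0.060 at 0.5% O2 (adjusted p = 1.31e-07 and 7.69e-12), and in osteoblast cultures, with -0.52 ± 0.13 and -1.18 ± 0.062 (adjusted p = 0.00414 and 1.45e-10). In normoxic smooth muscle it was not called (0.00 ± 0.055, adjusted p = 0.97).

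Nid2, which encodes the second nidogen, went the opposite way with oxygen in the differentiated states. It was lower at 0.5% O2, with log2 differences of -2.14 ± 0.13 in chondrocyte cultures (adjusted p = 1.45e-06), -2.25 ± 0.12 in osteoblast cultures (adjusted p = 8.51e-07) and -4.99 ± 0.19 in smooth muscle cultures (adjusted p = 4.1e-12). In proliferating cells it measured between 2.37 and 4.91 CPM and was higher at 0.5% O2 (0.58 ± 0.18, adjusted p = 0.013). Of the summed per-kb level of the nidogen genes, Nid2 made up 1.03% in normoxic proliferating cells and 26.4%, 29.6% and 32.2% in normoxic chondrocyte, osteoblast and smooth muscle cultures. At 0.5% O2 it made up 0.505%, 3.72%, 4.29% and 0.456%.

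**Figure D5:**
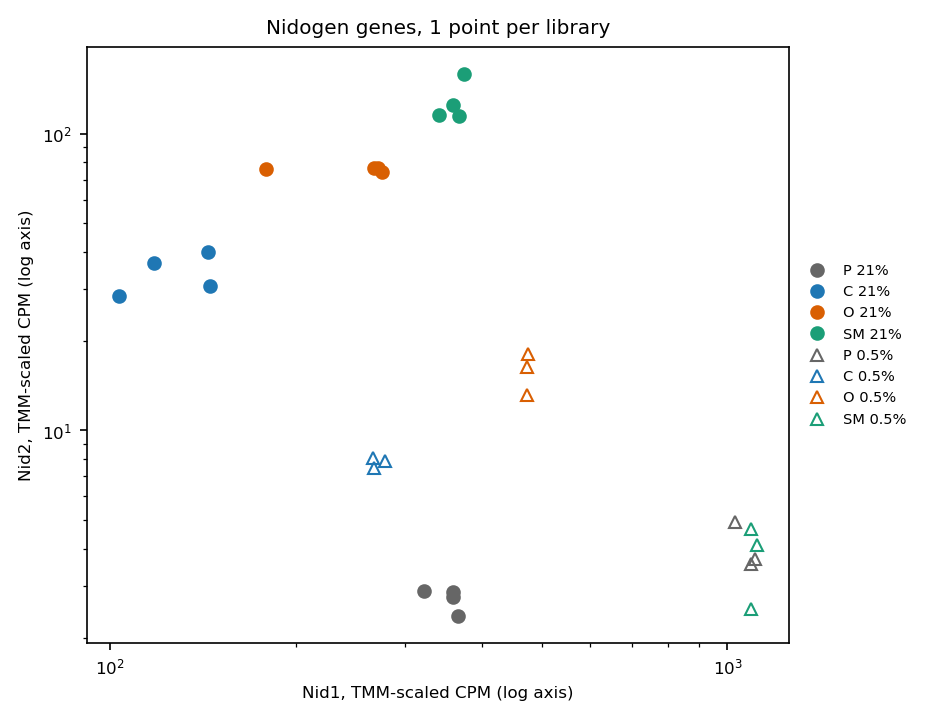
Nid1 against Nid2, both as TMM-scaled CPM on log axes, 1 point per library, with filled circles for 21% O2 and open triangles for 0.5% O2. The normoxic differentiated libraries lie at 28.3 CPM of Nid2 or more and the hypoxic ones at 18.1 CPM or less, while hypoxic proliferating and smooth muscle libraries lie at 1030 CPM of Nid1 or more.

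Hspg2 rose most in chondrocyte cultures, where perlecan is a known part of the matrix around the cells. Normoxic proliferating cells held 393, 402, 367 and 262 CPM and normoxic chondrocyte cultures 1540, 2041, 1459 and 1374 CPM. The log2 rise was 2.20 ± 0.16 (adjusted p = 5.55e-07), with no overlap, and it was 1.69 ± 0.17 in osteoblast cultures (adjusted p = 1.06e-05). At 0.5% O2 the rises were 1.14 ± 0.075 and 0.96 ± 0.089 (adjusted p = 1.5e-08 and 1.29e-07), from a proliferating level of 815, 794 and 690.4 CPM that was 1.10 ± 0.15 above the normoxic one (adjusted p = 0.00039). The chondrocyte levels overlapped between oxygen levels: hypoxic chondrocyte cultures held 1615, 1783 and 1669 CPM, 0.06 ± 0.13 from normoxic ones (adjusted p = 0.79). In osteoblast cultures the oxygen difference was 0.37 ± 0.16 (adjusted p = 0.0684), and 0.25 and called without normoxic replicate 4 (adjusted p = 0.019). The interaction was -1.03 ± 0.21 in chondrocyte cultures (adjusted p = 0.00138). The rise in normoxic smooth muscle, 0.50 ± 0.19 (adjusted p = 0.041), was lost on leaving out any of 6 of the 8 libraries in turn, and with limma-voom (adjusted p = 0.059). In hypoxic smooth muscle, at 1372, 748 and 940 CPM, the difference from normoxic smooth muscle was 1.13 ± 0.23 (adjusted p = 0.00226). With library size alone it is -0.23 and not called (adjusted p = 0.406).

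In the order of the 8 group means, neighbouring groups were free of overlap at 1 of 7 steps for Col4a1 and Hspg2 and at 5 of 7 for Lamb1 and Lama4, with the other genes between. The same count was not made over all genes, so these steps describe each gene and do not set it apart from others. Col4a1 descended from hypoxic smooth muscle (mean 2075 CPM) through hypoxic proliferating (1675), normoxic osteoblast (1525), normoxic chondrocyte (1307), normoxic smooth muscle (1092), hypoxic osteoblast (974) and hypoxic chondrocyte (860) to normoxic proliferating cells (603), and only the last step was free of overlap between neighbours. Lamb1 descended from hypoxic smooth muscle (958) through hypoxic proliferating (582), normoxic smooth muscle (433), normoxic proliferating (357), hypoxic chondrocyte (214), hypoxic osteoblast (206) and normoxic chondrocyte (198) to normoxic osteoblast cultures (109), with overlap only among the hypoxic chondrocyte, hypoxic osteoblast and normoxic chondrocyte groups. Nid1 had hypoxic smooth muscle (1099) and hypoxic proliferating cells (1077) on top, overlapping each other and clear of hypoxic osteoblast cultures (474). For Hspg2 all neighbours overlapped except hypoxic proliferating (766) and normoxic smooth muscle (514). With library size alone, hypoxic smooth muscle lost the top place for Col4a1, Lamb1 and Nid1: Col4a1 averaged 1108 CPM there against 1914 in hypoxic proliferating cells, Lamb1 510.8 against 665.1 and Nid1 585.6 against 1231.

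The genes whose log2 CPM followed each member most closely over the 28 libraries, among 13543 genes and by Pearson's r, are given as a description, since libraries of a group share their culture state. Lama2 was most like Thbs1 (r = 0.979), Pkd1 (0.979) and Ehd3 (0.974), and Hspg2 most like Lrp1 (0.973). Lama4 was most like Stat3 (0.972), Nid1 most like Nadk2 (0.959), Col4a6 most like Nr3c1 (0.938) and Lamb1 most like Hook2 (0.930). The closest for Col4a5, Lamc1, Col4a2 and Col4a1 were Efna1 (0.913), Ccdc50 (0.912), AI464131 (0.905) and Iqsec2 (0.900).

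Other basement membrane genes, 27 in a list that holds the remaining laminin, collagen IV and XV and XVIII, nidogen, agrin, fibulin, SMOC, FRAS and related genes, also rose more often than they fell in 5 of the 6 differentiations, hypoxic smooth muscle being the exception. The shares of all genes called higher and lower stand with the counts of the 10 genes above. At 21% O2, of the 21 tested in each comparison, 16 rose and 4 fell in chondrocyte cultures, 17 rose and 2 fell in osteoblast cultures, and 16 rose and 4 fell in smooth muscle cultures. At 0.5% O2 the counts were 14 and 5 of 20, 15 and 4 of 20, and 3 and 8 of 18. The hypoxic smooth muscle counts of this and the next lists are under TMM scaling only and were not recomputed with library size alone. Smoc2, a secreted calcium-binding matrix protein gene, had the largest rise, 9.54 ± 0.20 in normoxic chondrocyte cultures (adjusted p = 1.9e-11). Col18a1, the collagen XVIII gene, fell in normoxic osteoblast cultures with a log2 fold change of -2.75 ± 0.21 (adjusted p = 1.23e-06). Of the list, 16 of 18 tested in proliferating cells were higher at 0.5% O2 and 1 lower. The other states differed: 7 were higher and 7 lower of 21 in chondrocyte cultures, and 11 and 6 of 21 in osteoblast cultures. In smooth muscle cultures 5 were higher and 12 lower of 22.

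Receptors for these proteins were split. Of 9 tested receptor genes, 6 rose and 3 fell in normoxic chondrocyte and in normoxic osteoblast cultures, and 4 rose and 5 fell in the hypoxic ones, where 37.7%, 40.9%, 34.9% and 36.2% of all genes rose. In the same order, 37.2%, 37.8%, 34.6% and 35.1% of all genes fell. In smooth muscle cultures 6 rose and 2 fell of 9 at 21% O2, and 2 rose and 6 fell of 8 at 0.5% O2, where 40.8% and 33.8% of all genes rose and 38.9% and 36.2% fell. Itga6, the laminin-binding integrin alpha 6 gene, fell in chondrocyte cultures, with log2 fold changes of -4.45 ± 0.11 at 21% and -4.24 ± 0.076 at 0.5% O2 (adjusted p = 1.35e-11 and 1.02e-13), from means of 281 and 455 CPM. Itga3, another laminin-binding integrin gene, fell beside it, with -3.15 ± 0.17 and -2.54 ± 0.074 (adjusted p = 6.36e-08 and 5.62e-12). Ddr1, a collagen-binding receptor tyrosine kinase gene, rose by 2.29 ± 0.077 and 1.32 ± 0.067 (adjusted p = 1.49e-10 and 1.12e-09). All 8 tested receptor genes were higher in hypoxic than in normoxic proliferating cells, where 33.1% of all genes were. At 0.5% O2, 5 were higher and 1 lower of 9 in chondrocyte cultures (10.4% and 11.8% of all genes). In osteoblast cultures 4 were higher and 1 lower of 9 (27.0% and 27.3%), and in smooth muscle cultures 4 and 6 of 10 (35.4% and 40.2%).

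Genes for collagen folding, modification and export rose together in chondrocyte cultures, 17 of 17 at each oxygen level, with medians of 2.01 and 1.53, where 37.7% and 34.9% of all genes rose. In osteoblast cultures 17 rose at 21% O2, and 13 rose and 1 fell at 0.5% O2, where 40.9% and 36.2% of all genes rose. For smooth muscle the counts were 12 and 2 at 21% O2 and 6 and 9 at 0.5% O2 (median -0.20), where 40.8% and 33.8% of all genes rose and 38.9% and 36.2% fell. In normoxic chondrocyte cultures Plod2, a collagen lysyl hydroxylase gene, rose by 4.84 ± 0.084 and P4ha2, a collagen prolyl hydroxylase gene, by 4.44 ± 0.073 (adjusted p = 8.26e-13 and 6.35e-13). Both were also far higher in hypoxic than in normoxic proliferating cells, by 3.86 ± 0.057 and 4.06 ± 0.063 (adjusted p = 9.68e-15 and 1.13e-14). There 11 of the 17 genes were higher and 3 lower, against 33.1% and 32.3% of all genes. Of the proteases and inhibitors that act on basement membranes, Mmp2, the gelatinase A gene, rose by 2.88 ± 0.066 in normoxic chondrocyte and 2.86 ± 0.056 in normoxic osteoblast cultures (adjusted p = 6.2e-12 and 4.1e-10). Timp3, an inhibitor bound to the matrix, rose by 3.29 ± 0.30 and 3.69 ± 0.26 (adjusted p = 1.11e-05 and 8.71e-07). Of the 7 tested, 6 rose and 1 fell in the chondrocyte and 5 rose and 2 fell in the osteoblast comparison, where 37.7% and 40.9% of all genes rose and 37.2% and 37.8% fell.

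In the authors' deposited table of comparisons, the log2 fold changes of the 10 genes had the same sign as those found here in 98 of 98 values tested in both. The median difference between the authors' deposited table and these values was 0.016, and the largest was 0.184, for Lama2 between hypoxic and normoxic smooth muscle.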

How the data were processed

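Poly(A) RNA of O9-1 cells was sequenced from stranded libraries, per the labels' protocols. The submitters' processing notes name HISAT2 2.0.5, StringTie 1.3.3b, featureCounts 1.5.0-p3 and the mm10 build. The annotation release, and whether counting used strand, are not given in the sources used here. The authors deposited a table of raw counts per gene, and 10 tables of log2 fold changes with p-values, each deposited table comparing a pair of groups; the 70 normalized per-library columns in those tables were not used.

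Counts were scaled with edgeR 4.0.16 (TMM) in R 4.3.3, low genes removed with filterByExpr, and each pair of groups tested with the robust quasi-likelihood test (glmQLFit, glmQLFTest) and Benjamini-Hochberg adjustment over all genes tested. Interactions used 4 groups. SE is the log2 fold change over the root of F. Levels are CPM over all 28 libraries. Alternatives were DESeq2 1.42.0, limma 3.58.1 (voom), library size alone, no filter, a minimum of 10 counts in every library, 1 fit of all libraries, a replicate block and leaving out each library. The code was tested on simulated data. Members and gene lists were chosen with earlier results of these data known. All members are named, with, in each pairwise comparison, the 2 called genes of each other list that rose most and the 2 that fell most, at a mean of 10 counts or more in both groups, and fixed genes such as Lama1, Lama5, Lamb2, Nid2, P4ha2 and Plod2. Values of Lama3, Lamb3 and marker genes outside that rule were chosen after they were seen. Col4a2 overlaps Gm15419 (4787 counts against 760541) and Nid1 overlaps Gm48682 (1859 against 348740), and reads shared with them could be split. 1 item is not reported here.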

Additional observations from a re-analysis of the deposited data

Results flagged for a closer look

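In 7 of 40 combinations of a gene and a normoxic group, 1 library lay far from the other 3 by Dixon's criterion, which chance meets in about 1 in 20 groups. Normoxic osteoblast replicate 4 gave 4 of them, with Lama4 at 86.7 CPM, Lamb1 at 67.05, Lamc1 at 334.8 and Nid1 at 178.6 CPM. Its chondrocyte markers summed to 1502 CPM, and their part in these values was not tested. Normoxic proliferating replicate 4 gave Col4a5 at 110.6 and Nid1 at 322.7 CPM, and normoxic chondrocyte replicate 1 gave Lamc1 at 312.3 CPM.

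The change on differentiation differed between oxygen levels, by a test of the difference itself, in 23 cases, given here as the hypoxic minus the normoxic log2 change. In chondrocyte cultures it was -2.077 for Col4a1, -2.063 for Col4a2, -0.354 for Col4a5, -0.482 for Col4a6, -4.203 for Lama4, -0.589 for Lamb1, -0.861 for Lamc1, -0.521 for Nid1 and -1.028 for Hspg2. In osteoblast cultures it was -2.066 for Col4a1, -2.533 for Col4a2, 0.754 for Col4a6, -3.3 for Lama4, -0.623 for Nid1 and -0.682 for Hspg2. In smooth muscle cultures it was -0.362 for Col4a1, -2.557 for Col4a2, -1.334 for Col4a5, -0.758 for Col4a6, -4.59 for Lama2, -6.261 for Lama4, 0.628 for Lamb1 and -1.105 for Lamc1. The Lama2 value was -9.92 without hypoxic smooth muscle replicate 1, which held the 5 Lama2 counts of that group, and the Lamb1 value reverses with library size alone.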

How the results depend on the processing

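Results kept their direction and side of the threshold in 125 of 128 cases with DESeq2, 123 with limma-voom, 119 with no filter, 118 with 1 fit of all 28 libraries, 111 with library size alone, 111 of 112 with 10 counts in every library, and 1058 of 1107 on leaving out a library. With library size alone, log2 values reversed in hypoxic smooth muscle against hypoxic proliferating cells (Col4a1 -0.788, Hspg2 -0.682, Nid1 -1.072, Lamb1 -0.381, Col4a6 -1.207), against normoxic smooth muscle (Col4a1 -0.3, Hspg2 -0.232, Lamb1 -0.083) and in the smooth muscle interaction (Hspg2 -1.258, Nid1 -1.155, Lamb1 -0.707). Lamc1 reversed in normoxic chondrocyte cultures (-0.064) and between oxygen levels in osteoblast cultures (-0.151), and Hspg2 between oxygen levels in chondrocyte cultures (-0.016). None of these values was then called, nor were those of Hspg2 and Lamb1 against normoxic smooth muscle. That scaling moved the median log2 change of all genes from -0.07 to -1.35 and from -0.12 to -1.49 in the 2 hypoxic smooth muscle comparisons, from -0.04 to -1.37 in their interaction, and from -0.00 and -0.02 to -0.35 in both chondrocyte comparisons with proliferating cells. The share of calls that were higher went from 48.3% to 15.0%, 46.8% to 15.6%, 49.6% to 16.6%, 50.3% to 34.7% and 50.2% to 31.8% there, from 50.8% to 38.2% in hypoxic osteoblast cultures, and between oxygen levels from 46.9% to 31.8% in chondrocyte and 49.6% to 36.9% in osteoblast cultures.

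Values not called also changed sign. With no filter these were Nid1 in normoxic smooth muscle (-0.013), Col4a6 in hypoxic smooth muscle against hypoxic proliferating cells (-0.032), Lamc1 between oxygen levels in osteoblast cultures (-0.003, and -0.013 with 10 counts in every library) and the Hspg2 smooth muscle interaction (-0.004). In 1 fit of all libraries they were that Nid1 (-0.05) and Col4a6 (-0.051) value, and with limma-voom the Lama2 osteoblast interaction (-0.055). Leaving out a library gave ranges of -0.053 to 0.03 for that Nid1 value, -0.038 to 0.121 for Col4a6, -0.011 to 0.202 for Hspg2 between oxygen levels in chondrocyte cultures, -0.11 to 0.085 for Lamc1, -0.035 to 0.647 for the Lama2 interaction and -0.204 to 0.241 for the Hspg2 interaction. Calls between oxygen levels in chondrocyte cultures ranged from 2091 (without hypoxic replicate 3) to 3359 against 3157 in all. The cause was not tested.

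The labels link same-numbered libraries by number only, and their residual correlations ran from -0.054 to 0.074 over 33 pairs. With 3 or 4 libraries a group this cannot exclude a shared batch. With a replicate block, 123 of 128 results kept their direction and side of the threshold. Between oxygen levels the block leaves normoxic replicate 4 alone in its block and so also removes it. The calls in osteoblast cultures went from 7890 to 9269 with the block and to 9376 on leaving out that library alone. Lamc1 there was -0.11 either way, Hspg2 0.25 either way, Lama2 0.335 and 0.33, and Col4a6 in proliferating cells 0.373 and 0.36, the last 3 gaining a call. The block ended the call of Hspg2 in normoxic smooth muscle (0.485, adjusted p = 0.142). Depth limits Lama2 and Lama4 in proliferating cells and Lama2 in hypoxic smooth muscle. All libraries come from 1 cell line, and 3 or 4 libraries a group limit the precision.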
